A study of Mus musculus with 28 samples.

Results

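Transcripts of the mouse Fc gamma receptor genes were followed across bone marrow-derived macrophages, that is, macrophages cultured from marrow cells in a dish. The members are the 5 genes Fcgr1, Fcgr2b, Fcgr3, Fcgr4 and Fcer1g, chosen by name out of 55487 gene IDs per library, and all 5 passed the filter on low values. RNA was sequenced from 28 libraries in 7 groups of 4. Unpolarized macrophages formed the M0 group, whose labels state neither an uptake status nor added T cells. Macrophages exposed for 48 h to IFN-γ or IL-10, each at 50 ng/mL, were cultured with dying T cells and sorted by what they had eaten, which gave Treg-phagocytic, Tconv-phagocytic and non-phagocytic groups for each cytokine. Treg stands for regulatory T cells and Tconv for conventional CD4 T cells. The T cells had been killed with ATP or NAD and carried an anti-CD4 antibody with the dye BV421 or Ax647, and all macrophages are labelled wild-type. The dye in the title and in the library name disagree for all 8 Treg-phagocytic libraries, and the titles' dye and number are used as names for phagocytic libraries. A comparison with M0 may also cross T cell co-culture and sorting, which then cannot be told apart from the cytokine. Nothing in the labels states that the 4 libraries of a group came from separate animals or cultures, so p-values measure the spread between these libraries.

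Fc gamma receptors bind the constant part of IgG antibodies on the surface of macrophages, where bound immune complexes or coated cells can set off phagocytosis and cytokine release. Fcgr1 encodes the high-affinity receptor and Fcgr3 and Fcgr4 encode activating receptors of lower affinity. These 3 depend on Fcer1g, the common gamma chain, whose cytoplasmic ITAM (an activating tyrosine motif) recruits kinases. Fcgr2b is the inhibitory receptor, a single chain with its own ITIM (an inhibitory tyrosine motif) that recruits the lipid phosphatase SHIP. The balance of activating to inhibitory receptors is widely used to describe how readily a macrophage responds to antibody-coated targets, and IFN-γ and IL-10 are both textbook regulators of these genes.

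Levels are in TPM (length-normalised transcript abundance), scaled to the same sum in each library, so genes can be compared with each other. The files give no read counts. Relative depth, estimated from the step size of low values, was 11.3% to 23.9% of the deepest library under IFN-γ, 49.2% to 92.1% under IL-10 and 68.8% to 100% in M0. Approximate reads for Fcgr1 were 179 to 524 under IFN-γ and 3087 to 6319.9 under IL-10, so counting noise alone was up to 7.47% (CV) for Fcgr1 and up to 7.74% for Fcgr4 under IFN-γ. The 8 macrophage markers summed to 16482 to 21245 TPM, most of it Lyz2, with Adgre1 and Csf1r present in every library. T cell markers (13 genes) summed to 207 to 301 TPM in M0, 529 to 907 TPM under IFN-γ and 172 to 299.7 TPM under IL-10. Most of the M0 sum was Il7r, which averaged 159 TPM in M0 and 96.0 TPM in IFN-γ non-phagocytic libraries. Cd28 was also lower there than in M0 on average, and the other genes of the list were higher. Trac, for example, averaged 7.10 TPM in M0 and 64.5 TPM in IFN-γ non-phagocytic libraries. B cell markers (7 genes), from a cell type that also carries Fcgr2b, summed to 16.5 to 24.9 TPM, 39.7 to 68.0 TPM and 17.6 to 38.2 TPM in the same order. Treg cell markers (6 genes) summed to 5.98 to 14.8 TPM, 56.5 to 96.0 TPM and 11.9 to 26.8 TPM, and dendritic cell markers (6 genes) to 1.26 to 3.69 TPM, 8.84 to 22.3 TPM and 2.13 to 5.07 TPM. NK cell markers (7 genes) stayed at or below 2.74 TPM in sum. Mast cell or basophil markers (7 genes) stayed at or below 3.31 TPM in sum, and of these Fcer1a and Ms4a2 were listed at 0 in every library. The neutrophil list (7 genes) summed to 90.4 to 94.5 TPM in M0, 64.4 to 102 TPM under IFN-γ and 111 to 137 TPM under IL-10. Most of it was Csf3r, S100a9, S100a8 and Mmp8, which averaged 48.9, 27.3, 10.2 and 6.3 TPM in M0, while Ly6g was at most 1.79 TPM. The fibroblast list (7 genes) summed to 93.2 to 110.1 TPM in M0, 1.32 to 6.20 TPM under IFN-γ and 22.9 to 131 TPM under IL-10. The part of these cells in the results below was not tested, and in bulk RNA fewer cells of a type and less RNA per cell cannot be told apart.

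Of the members, 4 lie close together on chromosome 1 (mm10, GENCODE vM21): Fcgr2b at chr1:170958617-170976547 (- strand), Fcgr4 at chr1:171018920-171029761 (+ strand), Fcgr3 at chr1:171051174-171064935 (- strand) and Fcer1g at chr1:171229572-171234365 (- strand). Fcgr1 lies alone at chr3:96282909-96293969 (- strand). All are annotated as protein coding. Of the 75-base stretches of the longest coding transcript, 7.09% of those of Fcgr2b and 7.38% of those of Fcgr3 also occur in another gene, for Fcgr3 only in Fcgr2b, so reads from these stretches cannot be assigned with certainty. The other 3 members share none. An antisense gene, Gm38204, overlaps Fcgr2b and reached at most 0.43 TPM.

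The promoter windows from RefSeq (GRCm38.p6, 250 bases before to 50 after the start site, all 5 members found) are shown for the high-affinity receptor, for the activating receptor of lower affinity with an interferon response match, and for the inhibitory receptor. Capitals mark matches, on either strand, to an interferon response motif (GAAA, any 2 bases, GAAA) or to a PU.1 motif (GAGGAA, or TTCCTC on the other strand). The motif TATAAA was searched as well.
Fcgr1, chr3:96293920-96294219 (- strand): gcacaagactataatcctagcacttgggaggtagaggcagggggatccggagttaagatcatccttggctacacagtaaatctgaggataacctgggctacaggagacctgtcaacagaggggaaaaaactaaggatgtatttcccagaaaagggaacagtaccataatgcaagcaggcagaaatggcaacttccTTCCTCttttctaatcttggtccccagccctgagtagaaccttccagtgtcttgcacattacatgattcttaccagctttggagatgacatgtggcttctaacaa
Fcgr4, chr1:171018676-171018975 (+ strand): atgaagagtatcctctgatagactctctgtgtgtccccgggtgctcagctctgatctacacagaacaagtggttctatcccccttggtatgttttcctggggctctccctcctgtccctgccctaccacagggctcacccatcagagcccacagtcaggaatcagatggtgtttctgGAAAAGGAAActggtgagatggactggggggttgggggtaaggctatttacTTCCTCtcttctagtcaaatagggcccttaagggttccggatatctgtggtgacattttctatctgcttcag
Fcgr2b, chr1:170976022-170976321 (- strand): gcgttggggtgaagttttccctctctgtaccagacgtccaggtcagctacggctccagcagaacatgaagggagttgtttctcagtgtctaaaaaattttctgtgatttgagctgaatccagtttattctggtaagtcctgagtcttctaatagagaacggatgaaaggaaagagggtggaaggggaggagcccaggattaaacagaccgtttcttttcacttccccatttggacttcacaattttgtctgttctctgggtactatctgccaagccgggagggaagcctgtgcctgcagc
The Fcgr1 window holds 1 match to the PU.1 motif, at position -55 from the start site. In the Fcgr4 window, a match to the interferon response motif stands at -73 and a PU.1 match at -22. Both windows listed for Fcgr3 hold 1 PU.1 match, at -6 or -15 depending on the start site, and the Fcgr2b and Fcer1g windows hold none of the motifs. Of 32851 promoter windows of the same length, 3.44% hold the interferon response motif, 28.3% the PU.1 motif and 13.6% TATAAA. A match is a description of the letters and not a measured binding site.

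**Figure D1:**
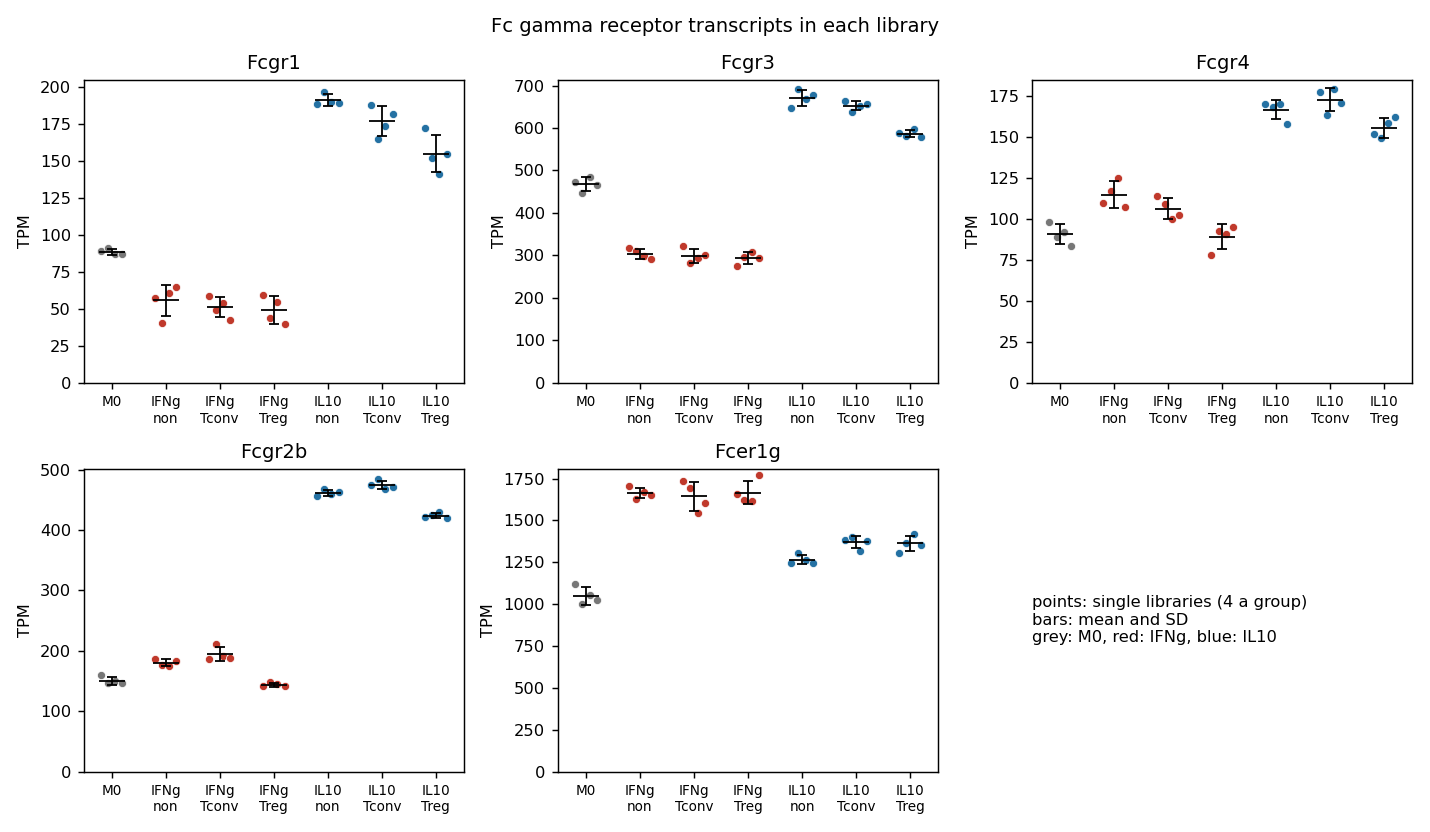
TPM (y axis, linear from 0) of the 5 members in each of the 28 libraries, by group (x axis, IFNg for IFN-γ and IL10 for IL-10; non, Tconv and Treg for what the sorted macrophages had eaten); points are single libraries and bars the mean and SD of 4. The 4 receptors that bind IgG are all highest in the IL-10 groups, while Fcer1g is highest in the IFN-γ groups, at 1544 to 1769 TPM.

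Fcgr1, the high-affinity receptor, was the member whose level varied most, 4.997-fold from its lowest to its highest library. It stood at 88.8, 91.3, 86.9 and 86.9 TPM in M0 libraries 1 to 4. Under IFN-γ it was 57.2, 40.6, 60.5 and 64.4 TPM in non-phagocytic libraries 1 to 4. Library 2 was the lowest of these, and none reached M0. Tconv-phagocytic libraries (BV421-1, BV421-2, Ax647-1 and Ax647-2) under IFN-γ held 58.5, 49.2, 54.1 and 42.5 TPM, and Treg-phagocytic libraries (Ax647-1, Ax647-2, BV421-1 and BV421-2) held 59.5, 43.5, 54.5 and 39.4 TPM. The 3 IFN-γ groups overlapped one another. IL-10 non-phagocytic libraries held 189, 197, 189.9 and 189 TPM. IL-10 Tconv-phagocytic libraries held 188, 165, 173 and 182 TPM and IL-10 Treg-phagocytic libraries 172, 152, 141 and 155 TPM, in the library orders given above, which hold for all values that follow. Every IL-10 library was above every M0 library for Fcgr1, and all Treg-phagocytic libraries were below all non-phagocytic ones.

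Fcgr3, an activating receptor of low affinity, had the highest level of the 4 IgG-binding receptors in M0, at 473, 448, 486 and 467 TPM. It was 317, 311, 299 and 290.5 TPM in IFN-γ non-phagocytic, 321, 281, 293 and 301 TPM in IFN-γ Tconv-phagocytic and 274, 297, 309 and 295 TPM in IFN-γ Treg-phagocytic libraries. These 12 values overlapped between the groups and all lay below M0. Under IL-10 the values were 648, 692, 669.6 and 678 TPM without uptake, 664, 638, 652 and 657 TPM after Tconv uptake and 589, 582, 598 and 579.5 TPM after Treg uptake. The Treg-phagocytic libraries were below all others of IL-10 and above all of M0.

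Fcgr4, the other activating receptor, was 98.0, 89.1, 92.1 and 83.3 TPM in M0. It stood at 109, 117, 125 and 107 TPM in IFN-γ non-phagocytic, at 114, 109, 99.95 and 102 TPM in IFN-γ Tconv-phagocytic and at 77.9, 92.8, 90.7 and 95.2 TPM in IFN-γ Treg-phagocytic libraries. The Treg-phagocytic values fell within or below the M0 range, and the other IFN-γ libraries were all above M0. Under IL-10 it was 170.3, 168, 169.9 and 158 TPM without uptake, 177, 164, 179 and 171 TPM after Tconv and 152, 149, 159 and 162 TPM after Treg uptake. All IL-10 libraries stood above all others for Fcgr4, and the Tconv and Treg values did not overlap.

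Fcgr2b, the inhibitory receptor, was 159, 147, 149 and 146 TPM in M0. IFN-γ non-phagocytic libraries held 186, 177, 174 and 184 TPM, Tconv-phagocytic ones 187, 212, 192 and 189 TPM and Treg-phagocytic ones 141, 148, 145 and 141 TPM. The 3 IFN-γ groups did not overlap in TPM, and the Treg-phagocytic group alone reached down to the M0 range. After the scaling between libraries used for the tests below, the Tconv-phagocytic and non-phagocytic groups overlapped (log2 fold change 0.06, limma adjusted p = 0.862). Under IL-10 the values were 456, 468, 461 and 463 TPM without uptake, 474, 484, 468 and 471 TPM after Tconv uptake and 421, 425, 429 and 421 TPM after Treg uptake. Again no 2 of these 3 groups overlapped in TPM, with the order Tconv, non-phagocytic, Treg from high to low under both cytokines.

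Fcer1g, the signalling gamma chain, had the highest level of the 5 in every library and ranked 108 of all gene IDs by mean TPM. It stood at 1123, 999.8, 1054 and 1024 TPM in M0, the lowest group. IFN-γ non-phagocytic libraries held 1704, 1630.04, 1670.3 and 1653 TPM, Tconv-phagocytic ones 1738, 1694, 1544 and 1602 TPM and Treg-phagocytic ones 1655, 1625, 1615 and 1769 TPM, overlapping one another. Under IL-10 it was 1244, 1303, 1267 and 1247 TPM without uptake, 1385, 1399, 1317 and 1377 TPM after Tconv and 1308, 1366, 1421 and 1356 TPM after Treg uptake. Both phagocytic IL-10 groups were above the non-phagocytic one and overlapped each other.

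The level of the receptors relative to their gamma chain differed by cytokine. Fcgr1, Fcgr2b, Fcgr3 and Fcgr4 summed to 798 ± 21.9 TPM in M0 (mean ± SD, n = 4, as for all group values below). The sum was 655 ± 11.1 TPM, 651 ± 21.2 TPM and 576 ± 19.4 TPM in the IFN-γ non-phagocytic, Tconv-phagocytic and Treg-phagocytic groups. It reached 1491 ± 25.96 TPM, 1477 ± 22.2 TPM and 1322 ± 11.1 TPM in the same IL-10 groups. Transcripts of Fcer1g per transcript of the 3 activating receptors numbered 1.62 ± 0.0548 in M0, 3.51 ± 0.0561 in IFN-γ non-phagocytic and 1.23 ± 0.00830 in IL-10 non-phagocytic libraries. No library of one of these groups overlapped with those of another for that quotient. In Treg-phagocytic libraries it was 3.86 ± 0.257 under IFN-γ and 1.52 ± 0.0632 under IL-10.

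Fold changes below are on the scale of log2(TPM divided by a library scaling factor, plus 1), tested with limma and adjusted over 13631 genes. Scaling matters between cytokines: without it the median gene would have a log2 change of -0.26 in IFN-γ against IL-10 non-phagocytic libraries, and of -0.24 in IFN-γ non-phagocytic libraries against M0. Changes are therefore relative to the bulk of genes. The unscaled change of a member is given where the change was called and differs by over 1.5 times. Comparisons that share a group, such as those with M0 or with the non-phagocytic group, are not independent of each other. Groups that do not overlap are described for the members only, and the share of all genes with such groups was not counted.

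IL-10 non-phagocytic macrophages had more of all 5 transcripts than M0. Fcgr2b rose most, with a log2 fold change of 1.60 (SE 0.03, adjusted p = 3.6e-09), from 150.3 ± 6.10 TPM to 462 ± 4.90 TPM. Fcgr1 rose by 1.09 (SE 0.03, adjusted p = 2.7e-08) and Fcgr4 by 0.86 (SE 0.05, adjusted p = 2.4e-06). Smaller rises were those of Fcgr3, 0.50 (SE 0.03, adjusted p = 6.1e-06), and Fcer1g, 0.25 (SE 0.03, adjusted p = 6.0e-04). All 4 libraries of one group were above all 4 of the other for each member. Of all genes tested, 26.6% were called in this comparison.

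IFN-γ non-phagocytic macrophages differed from M0 in both directions. Fcer1g rose by 0.94 (SE 0.04, adjusted p = 1.8e-07), Fcgr4 by 0.61 (SE 0.06, adjusted p = 4.2e-05) and Fcgr2b by 0.53 (SE 0.04, adjusted p = 1.3e-05). Fcgr3 changed by -0.35 (SE 0.04, adjusted p = 1.2e-04) and Fcgr1 by -0.41 (SE 0.13, adjusted p = 0.0234), both lower. The 2 groups did not overlap for any member, and 53.1% of all genes were called. Without scaling the changes were -0.68 for Fcgr1, -0.62 for Fcgr3, 0.34 for Fcgr4 and 0.26 for Fcgr2b, with the same directions. The call of Fcgr1 was lost when M0 library 1, 2 or 4 was left out (limma adjusted p = 0.0509, 0.0607 and 0.0540) or with no filter on low values (0.0773).

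Between the cytokines, the 4 IgG-binding receptors were lower and Fcer1g higher under IFN-γ in each of the 3 uptake classes, and no groups overlapped. The background share of called genes was 51.4% without uptake, 52.5% after Tconv and 38.8% after Treg uptake, so a call alone was common here. Fcgr1 was -1.50 (SE 0.13, adjusted p = 1.3e-05) without uptake, -1.63 after Tconv and -1.43 after Treg uptake. Fcgr2b followed with -1.07 (SE 0.04, adjusted p = 5.9e-08), -1.13 and -1.33, and Fcgr3 with -0.85 (SE 0.04, adjusted p = 3.0e-07), -0.97 and -0.77. The smallest of these falls was that of Fcgr4, at -0.25 (SE 0.05, adjusted p = 0.00305) without uptake, -0.55 after Tconv and -0.57 after Treg uptake. Fcer1g went the other way, at 0.68 (SE 0.03, adjusted p = 1.4e-07), 0.42 and 0.52. Without scaling, Fcgr4 was -0.54 and Fcer1g 0.40 in the non-phagocytic comparison, 0.26 for Fcer1g after Tconv and 0.29 after Treg uptake, all still called.

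**Figure D2:**
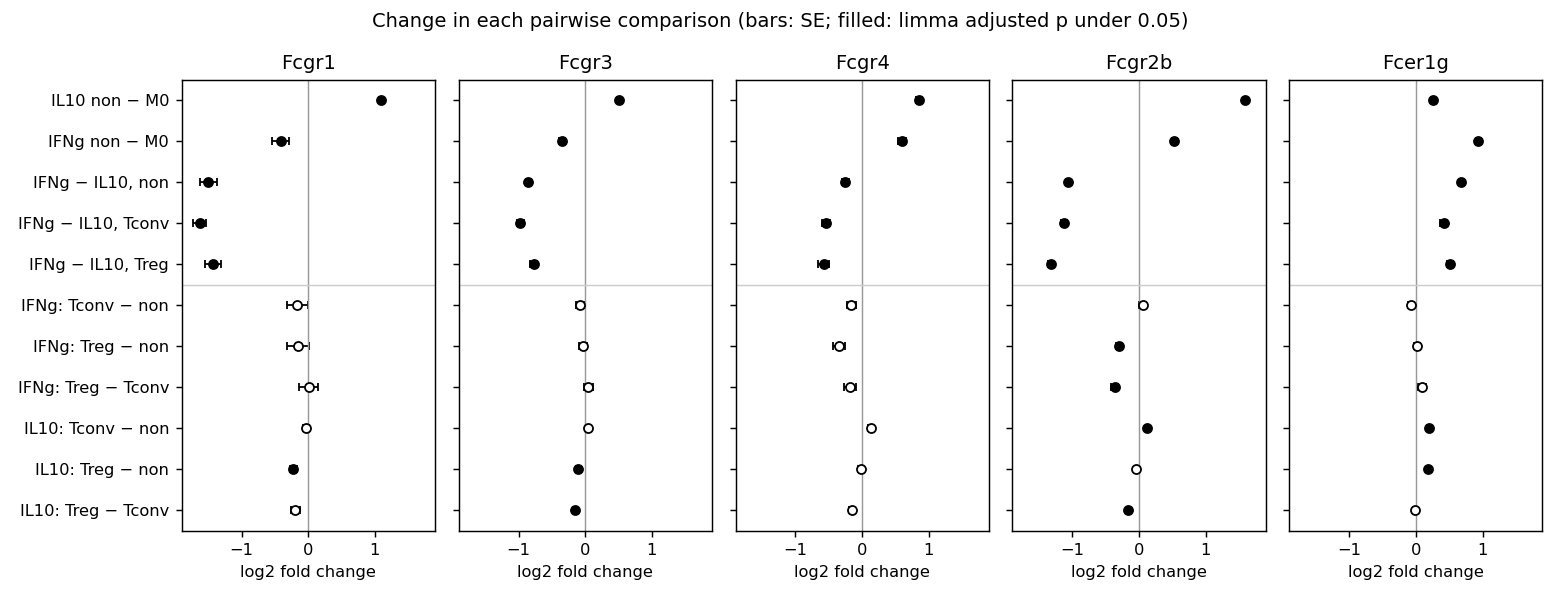
Log2 fold change (x axis) of each member in the 11 pairwise comparisons (y axis), with bars for the SE; filled points have a limma adjusted p under 0.05. Changes with the cytokine reach -1.63 for Fcgr1, while those with uptake (lower part) stay between -0.36 (Fcgr2b) and 0.20 (Fcer1g).

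Within IFN-γ, the inhibitory receptor was the only member called for a difference with uptake, and Fcgr4 was also lower after Treg uptake, without a call. Fcgr2b was lower in Treg-phagocytic than in Tconv-phagocytic libraries, -0.36 (SE 0.05, adjusted p = 0.00501), and than in non-phagocytic ones, -0.30 (SE 0.05, adjusted p = 0.00894), and the groups did not overlap in either comparison. The first of these calls was kept in 20 of 20 alternatives that set no limit on size, at a limma adjusted p of at most 0.0300, and the second in 16 of 17. None of Fcgr1, Fcgr3 and Fcer1g passed the test after Treg uptake, with 95% intervals against Tconv of -0.31 to 0.33 for Fcgr1, -0.11 to 0.20 for Fcgr3 and -0.05 to 0.23 for Fcer1g. Fcgr4 was -0.34 (SE 0.09, adjusted p = 0.0560) against non-phagocytic libraries, short of the threshold although the groups did not overlap. It was called in 4 of 17 alternatives, among them without scaling (-0.36, limma adjusted p = 0.0294). Against Tconv-phagocytic libraries Fcgr4 was -0.18 (95% interval -0.40 to 0.03, limma adjusted p = 0.266), with groups apart in TPM but not after scaling. That difference was called in 1 of 20 alternatives, 1 model of all 28 libraries (limma adjusted p = 0.0380). In each of these 2 comparisons 1 of 5 members was called, beside 11.5% and 7.73% of all genes. Between Tconv-phagocytic and non-phagocytic libraries 0 of 5 members were called by limma, with 1 at an unadjusted p under 0.05, where limma called 0.00734% of all genes (1 of 13631, with 875 at an unadjusted p under 0.05, and 122 called in 1 model of all 28 libraries). Over this pair the member intervals reached from -0.52 to 0.20 for Fcgr1 and from -0.06 to 0.18 for Fcgr2b. T cell markers summed to 529 to 846 TPM, 617 to 763 TPM and 615 to 907 TPM in the non-phagocytic, Tconv- and Treg-phagocytic libraries, which overlap, and B cell markers to 39.7 to 68.0 TPM, 55.5 to 55.9 TPM and 46.8 to 65.6 TPM. Macrophage markers summed to 17098 to 17800.1 TPM, 16482 to 18806 TPM and 20742 to 21245 TPM in the same order, highest in all Treg-phagocytic libraries. Most of these sums was Lyz2, at 15025 ± 314 TPM, 15050 ± 861 TPM and 18156 ± 195 TPM. Mertk went the other way, at 21.5 ± 0.787 TPM, 24.7 ± 3.56 TPM and 15.2 ± 1.55 TPM. The remaining markers of the list were highest on average in the Treg-phagocytic group. Relative depth was 18.4% to 22.3%, 20.5% to 23.9% and 11.3% to 20.1%, and the number of gene IDs above 0 was 15376 to 15723, 15662 to 16295 and 14148 to 15159. The part of the marker sums and of depth in these member differences was not tested.

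Within IL-10, differences with uptake were called for the receptors in the direction of lower levels after Treg uptake. Fcgr2b was lower in Treg-phagocytic than in Tconv-phagocytic libraries, -0.16 (SE 0.02, adjusted p = 0.00422), as was Fcgr3, -0.15 (SE 0.02, adjusted p = 0.0126). Fcgr4, -0.15, and Fcgr1, -0.19, were not called at limma adjusted p = 0.118 and 0.231. This made 2 of 5 members against 1.38% of all genes. The call of Fcgr3 was lost without the Tconv-phagocytic library Ax647-2 (limma adjusted p = 0.0521) and in 1 model of all 28 libraries (0.197).

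Against IL-10 non-phagocytic libraries, Fcer1g was higher after both kinds of uptake, 0.19 (SE 0.03, adjusted p = 0.00381) for Treg and 0.20 (SE 0.03, adjusted p = 0.00454) for Tconv, with no overlap and kept in 17 of 17 and 17 of 17 alternatives that set no limit on size. Without scaling these were 0.11 and 0.11. Fcgr1, -0.22 (SE 0.06, adjusted p = 0.0362), and Fcgr3, -0.11 (SE 0.03, adjusted p = 0.0235), were lower after Treg uptake, which gave 3 called members against 11.3% of all genes. Both calls were lost in 1 model of all 28 libraries (limma adjusted p = 0.432 for Fcgr1 and 0.228 for Fcgr3) and with no filter on low values (0.115 and 0.0547). Fcgr1 also lost its call without any 1 of IL-10 non-phagocytic libraries 1, 2, 3 and 4 or of Treg-phagocytic libraries Ax647-2, BV421-1 and BV421-2 (limma adjusted p = 0.0642 to 0.0911), and Fcgr3 without non-phagocytic library 2, 3 or 4 or Treg-phagocytic library Ax647-2 or BV421-2 (0.0557 to 0.0666). Fcgr3 was -0.19 without scaling. Fcgr2b was -0.04 (SE 0.02, adjusted p = 0.178) after Treg uptake and was called without scaling (-0.12, limma adjusted p = 0.00347). After Tconv uptake it rose by 0.12 (SE 0.02, adjusted p = 0.00910), but without scaling by 0.04 and without a call (limma adjusted p = 0.215), and the call was also lost in 1 model of all 28 libraries (limma adjusted p = 0.114). The count of 2 members called after Tconv uptake stands beside 6.08% of all genes. Fcgr4 was 0.13 (SE 0.04, adjusted p = 0.0824) after Tconv uptake, short of the threshold, and 0.05 without scaling. It was called in 1 of 17 alternatives, with variance weights (limma adjusted p = 0.0385). T cell markers summed to 172 to 187 TPM, 198 to 236 TPM and 279 to 299.7 TPM in the non-phagocytic, Tconv- and Treg-phagocytic groups, B cell markers to 17.6 to 22.2 TPM, 22.8 to 27.2 TPM and 35.8 to 38.2 TPM, and fibroblast markers to 66.8 to 73.2 TPM, 126 to 131 TPM and 22.9 to 26.4 TPM. None of these 3 lists overlapped between the groups. Macrophage markers summed to 16842 to 17122 TPM, 17260 to 17609 TPM and 17729 to 18366 TPM in the same order. Adgre1, Csf1r, Itgam and Cd14 were lowest on average in the Treg-phagocytic group, and Lyz2, Cd68, Mertk and Marco highest. Csf1r averaged 932, 881 and 791 TPM and Lyz2 12883, 13459 and 14251 TPM. Relative depth was 51.4% to 80.0%, 75.8% to 92.1% and 49.2% to 65.9%. The part of the marker sums and of depth in the member changes was not tested.

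Whether an uptake difference depended on the cytokine was tested as a difference of differences. For Treg against Tconv uptake, Fcgr2b was lowered more under IFN-γ, with a difference of -0.20 (SE 0.06, adjusted p = 0.0294), the 1 member called beside 13.1% of all genes. It lost the call under median-of-ratios scaling (-0.15, limma adjusted p = 0.108) and without IL-10 Tconv-phagocytic library BV421-1, Ax647-1 or Ax647-2 or IL-10 Treg-phagocytic library Ax647-1, Ax647-2 or BV421-1 (0.0511 to 0.0619). Fcgr3, at 0.20 (SE 0.07, adjusted p = 0.0849) and 0.13 without scaling, was called in 4 of 24 alternatives that set no limit on size. These were median-of-ratios scaling (0.25, limma adjusted p = 0.0198), 1 model of all 28 libraries (0.20, 0.0353), and leaving out the IFN-γ Tconv-phagocytic library BV421-1 (0.24, 0.0159) or the IFN-γ Treg-phagocytic library Ax647-1 (0.25, 0.0141). For Treg uptake against none, Fcgr2b was again lowered more under IFN-γ, with a difference of -0.26 (SE 0.05, adjusted p = 0.00379), and was called in 24 of 24 alternatives that set no limit on size, at a limma adjusted p of at most 0.0160. Fcgr4 was at the threshold, -0.32 (SE 0.10, adjusted p = 0.0498), and kept its call in 6 of 24 alternatives, with a limma adjusted p of up to 0.108. These 2 members compare with 9.53% of all genes. For Tconv uptake against none, Fcer1g differed by -0.27 (SE 0.06, adjusted p = 0.0233), the 1 member called beside 1.71% of all genes. This call was kept in 16 of 24 alternatives that set no limit on size. The difference was -0.13 without scaling (limma adjusted p = 0.206). The call was also lost with no filter on low values (0.0548), with variance weights (0.0621) and without IL-10 non-phagocytic library 1 or 4 or IL-10 Tconv-phagocytic library BV421-1, BV421-2 or Ax647-2 (0.0550 to 0.0623). Fcgr4 differed by -0.29 (SE 0.08, adjusted p = 0.0868), short of the threshold, and by -0.16 without scaling. It was called in 1 of 24 alternatives, without IFN-γ Tconv-phagocytic library BV421-1 (-0.34, limma adjusted p = 0.0228).

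The ratio of activating to inhibitory receptor, (Fcgr1 + Fcgr3 + Fcgr4) / Fcgr2b in TPM of the same library, needs no scaling between libraries. It was highest in M0, at 4.14, 4.28, 4.45 and 4.36. IFN-γ non-phagocytic libraries had 2.602, 2.65, 2.78 and 2.51, Tconv-phagocytic ones 2.64, 2.08, 2.33 and 2.36 and Treg-phagocytic ones 2.91, 2.92, 3.13 and 3.04. The Treg-phagocytic libraries stood above the other 8 of IFN-γ and below all of M0. IL-10 libraries had 2.21, 2.26, 2.24 and 2.21 without uptake, 2.17, 2.00, 2.15 and 2.14 after Tconv uptake and 2.17, 2.08, 2.09 and 2.13 after Treg uptake. Group means were 4.31 ± 0.132 in M0, 2.64 ± 0.112, 2.35 ± 0.230 and 3.00 ± 0.104 in the IFN-γ groups and 2.23 ± 0.0244, 2.11 ± 0.0796 and 2.12 ± 0.0407 in the IL-10 groups, in the order non-phagocytic, Tconv, Treg.

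Differences in this ratio were tested with two-sided exact permutation tests over 11 comparisons, where 4 libraries against 4 cannot go below p = 0.0286. Both cytokines went with a lower ratio than M0, with a difference of -0.95 on the log2 scale (SE 0.02, exact permutation p = 0.0286, adjusted p = 0.0393) for IL-10 and -0.71 on the log2 scale (SE 0.04, exact permutation p = 0.0286, adjusted p = 0.0393) for IFN-γ. Under IFN-γ the ratio was 1.28-fold higher after Treg than after Tconv uptake, 0.35 on the log2 scale (SE 0.08, exact permutation p = 0.0286, adjusted p = 0.0393), and 1.14-fold higher than without uptake, 0.19 on the log2 scale (SE 0.04, exact permutation p = 0.0286, adjusted p = 0.0393). Tconv uptake against none gave -0.17 on the log2 scale (SE 0.08, exact permutation p = 0.0857, adjusted p = 0.105), with overlapping groups. Under IL-10 the ratio was slightly lower after Treg uptake than without, -0.08 on the log2 scale (SE 0.02, exact permutation p = 0.0286, adjusted p = 0.0393), and after Tconv uptake than without, -0.08 on the log2 scale (SE 0.03, exact permutation p = 0.0286, adjusted p = 0.0393). Treg and Tconv uptake under IL-10 did not differ beyond their spread, 0.00 on the log2 scale (SE 0.03, exact permutation p = 0.971, adjusted p = 0.971). Between the cytokines the ratio was higher under IFN-γ by 0.50 on the log2 scale (SE 0.03, exact permutation p = 0.0286, adjusted p = 0.0393) after Treg uptake and by 0.24 on the log2 scale (SE 0.03, exact permutation p = 0.0286, adjusted p = 0.0393) without uptake, and by 0.15 on the log2 scale (SE 0.08, exact permutation p = 0.114, adjusted p = 0.126) after Tconv uptake, where the groups overlapped. In each of the 8 comparisons called, all 4 libraries of one group were above all 4 of the other, which the smallest p of this test requires. Their shared adjusted p depends on how many of the 11 comparisons reached that p, and it does not rank the differences by size.

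**Figure D3:**
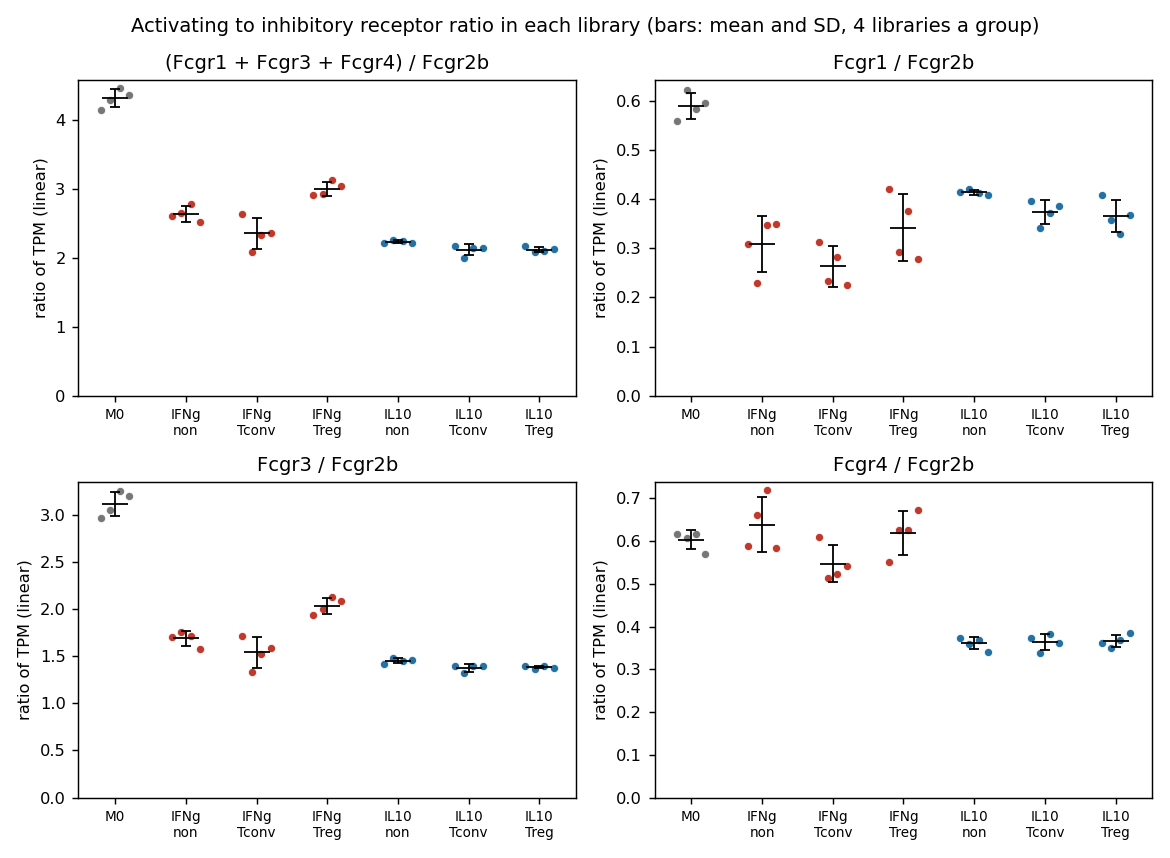
Ratio of activating receptors to Fcgr2b in TPM (y axis, linear from 0) in each library by group (x axis, named as in the plot of member levels), for the 3 receptors summed and for each alone; bars are the mean and SD of 4. The summed ratio is highest in M0, at 4.31 ± 0.132, and the IFN-γ Treg-phagocytic libraries stand above the other IFN-γ libraries.

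Taken 1 receptor at a time, the ratios to Fcgr2b did not all move together. Fcgr3 / Fcgr2b, the largest term, was 3.12 ± 0.130 in M0, 1.69 ± 0.0767, 1.54 ± 0.162 and 2.04 ± 0.0851 in the IFN-γ groups and 1.46 ± 0.0254, 1.38 ± 0.0392 and 1.38 ± 0.0136 in the IL-10 groups. Fcgr4 / Fcgr2b was 0.603 ± 0.0218 in M0 and 0.638 ± 0.0642 in IFN-γ non-phagocytic libraries, which overlapped, and 0.361 ± 0.0144 in IL-10 non-phagocytic ones. Fcgr1 / Fcgr2b was 0.590 ± 0.0268 in M0, 0.309 ± 0.0563 in IFN-γ and 0.414 ± 0.00510 in IL-10 non-phagocytic libraries. The IFN-γ to IL-10 difference without uptake was thus 0.82 for Fcgr4, 0.21 for Fcgr3 and -0.44 for Fcgr1 on the log2 scale, the last in the other direction. Under IFN-γ, Treg uptake against none gave 0.27 for Fcgr3, 0.15 for Fcgr1 and -0.04 for Fcgr4 on the log2 scale. The groups overlapped for Fcgr1 and Fcgr4 and not for Fcgr3. In this family of 33 exact permutation tests, 18 comparisons had groups that did not overlap, at the smallest possible p of 0.0286, which gave an adjusted p of 0.0524, so none passed 0.05.

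The make-up of the activating transcripts also shifted. Fcgr4 made up 13.999% ± 0.739 of the 3 activating receptors' TPM in M0, 24.2% ± 1.48 in IFN-γ non-phagocytic and 16.2% ± 0.668 in IL-10 non-phagocytic libraries. After Treg uptake under IFN-γ it was 20.6% ± 1.46. Fcgr1 made up 13.7% ± 0.611, 11.7% ± 2.22 and 18.6% ± 0.132 in M0 and the 2 non-phagocytic groups, and Fcgr3 72.3% ± 0.988, 64.1% ± 2.22 and 65.2% ± 0.747. These shares were not tested.

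Across the 28 libraries, as a description whose points share groups and depth, log2 levels of Fcgr1 and Fcgr3 had Pearson r = 0.96 and those of Fcgr2b and Fcgr4 r = 0.93. Fcer1g had r = -0.63 with Fcgr1 and -0.67 with Fcgr3. Among 8731 genes of at least 5 TPM on average, those most like Fcgr2b were Pirb (r = 0.98), an inhibitory receptor with ITIMs, C1qb (0.98), a chain of complement C1q, and AB124611 (0.98). Fcgr3 was closest to Ap2a2 (0.99) and Ap1b1 (0.98), subunits of clathrin adaptors, and to the TNF receptor gene Tnfrsf1a (0.98). Fcgr1 was closest to Ap2a2 (0.98), to the RNA demethylase gene Alkbh5 (0.97) and to Il6st (0.97), the shared receptor chain of the IL-6 family. For Fcgr4 they were Plbd1 (0.93), Ifitm1 (0.93), an interferon-induced membrane protein, and Dram1 (0.93). Fcer1g was closest to Tmsb4x (0.99), an actin-binding peptide, to the histone gene H3f3a (0.98) and to Tmem256 (0.98).

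The other genes of the pathway were taken from 5 lists with 85 genes: other Fc receptors and IgG-binding proteins, ITAM kinases and adaptors, effectors of Fc receptor phagocytosis, inhibitory phosphatases and ubiquitin ligases (a list that also holds inhibitory receptors such as Pirb and Cd300lf), and regulators named for Fc receptor genes. Of these, 77 passed the filter, and Fcamr, Fcer1a, Fcrl5, Fcrl6, Fcrlb, Ms4a2, Pigr and Siglece did not. Under IL-10 without uptake against M0, 30 of 77 were higher and 15 lower (median log2 fold change 0.10, against 0.003 over all genes tested, of which 26.6% were called). Pirb, an ITIM receptor, rose by 1.70 to 677 ± 9.55 TPM, and Cd300lf, another receptor with ITIMs, by 1.66. The Src family kinase gene Fgr rose by 1.54 and the Fc receptor-like gene Fcrls by 1.09. Of the 10 regulators, 8 were higher and 0 lower. Over all 13631 genes 1867 were higher and 1759 lower.

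IFN-γ without uptake against M0 had 30 of 77 higher and 21 lower (median log2 fold change 0.10, against -0.018 over all genes tested, of which 53.1% were called), but 22 higher and 39 lower without scaling. The transcription factor gene Irf1, a mediator of the IFN-γ response, rose by 2.35, from 46.4 ± 2.85 TPM to 199 ± 11.7 TPM. Lat, an adaptor of T cell receptor signalling, and Cd247, the CD3 zeta chain, rose by 2.6040 and 2.5998. Cd247 is also 1 of the 13 T cell markers, whose sum was higher in every IFN-γ library than in every M0 library, and the part of T cell RNA in these 2 changes was not tested. Between the cytokines without uptake, 23 were higher under IFN-γ and 26 lower (median log2 fold change -0.02, against -0.019 over all genes tested, of which 51.4% were called), or 16 and 41 without scaling. Lat (2.74) and Cd247 (2.17) were higher and Fcrls (-2.01) lower under IFN-γ. After Tconv uptake the counts were 23 and 27 (median log2 fold change -0.02, against -0.022 over all genes tested, of which 52.5% were called; 17 and 35 without scaling), with Lat (2.31), Fcrls (-2.21) and Cd247 (2.05). After Treg uptake they were 19 and 36 (median log2 fold change -0.26, against -0.086 over all genes tested, of which 38.8% were called; 12 and 50 without scaling), with Lat (2.12), Fgr (-2.01), Cd247 (1.86) and Fcrls (-1.72).

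Treg uptake under IFN-γ went with lower levels of several genes from these lists. Against Tconv-phagocytic libraries, 5 of 77 were higher and 19 lower (median log2 fold change -0.11, against -0.001 over all genes tested, of which 11.5% were called; 0 and 22 without scaling). Lyn, a Src family kinase that phosphorylates ITAMs and ITIMs, fell from 146 ± 23.0 TPM to 54.5 ± 5.31 TPM, a log2 change of -1.33, and stood at 52.6 ± 1.20 TPM in M0. Prkcd, a protein kinase C used in Fc receptor signalling, fell from 909 ± 117 TPM to 313 ± 23.6 TPM (-1.46). Stat2 changed by -1.63 and Cd300lf by -1.50. Of the 18 ITAM kinases and adaptors 6 were lower and 0 higher, and of the 16 tested genes on the list of inhibitory phosphatases and ubiquitin ligases 5 were lower and 1 higher. Over all 13631 genes 443 were higher and 1131 lower in this comparison. Against non-phagocytic libraries, 1 of 77 was higher and 16 were lower (median log2 fold change -0.12, against -0.005 over all genes tested, of which 7.73% were called), with Stat2 -1.54, Cd300lf -1.49, Prkcd -1.41 and Lyn -1.19. Of all genes, 212 were higher and 841 lower in this second comparison. For Tconv uptake against none, 0 of 77 were called by limma, beside 0.00734% of all genes, with 8 at an unadjusted p under 0.05 and 2 called in 1 model of all 28 libraries.

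Under IL-10, Treg against Tconv uptake had 1 of 77 higher, Lat2 (0.22), an adaptor of myeloid and B cells, and 2 lower, Fcrls (-0.27) and Pirb (-0.14), with median log2 fold change -0.02, against -0.003 over all genes tested, of which 1.38% were called. Treg uptake against none had 12 higher and 9 lower (median log2 fold change -0.0040, against -0.001 over all genes tested, of which 11.3% were called; 9 and 18 without scaling), with Lat (1.01), Cd247 (0.78), Fcrl1 (0.44) and Lat2 (0.38) the largest. The T cell marker sums given above for these 2 groups do not overlap, and their part was not tested. Tconv uptake against none had 10 higher and 2 lower (median log2 fold change 0.01, against 0.008 over all genes tested, of which 6.08% were called; 4 and 13 without scaling), the largest being Lat (0.64), Vav2 (0.40), Fcrls (0.33) and Fcgrt (0.31), the neonatal Fc receptor. The difference between the cytokines was itself called for Prkcd (-1.51), Stat2 (-1.68) and Cd300lf (-1.33) in Treg against Tconv uptake, where 5 of 77 genes were higher and 20 lower (median log2 fold change -0.12, against -0.001 over all genes tested, of which 13.1% were called). Of all genes, 565 were higher and 1217 lower for this difference. For Treg uptake against none the counts were 2 and 15 (median log2 fold change -0.13, against -0.027 over all genes tested, of which 9.53% were called), with Prkcd -1.49, Cd300lf -1.45 and Stat2 -1.43. Here 257 of all genes were higher and 1042 lower. For Tconv uptake against none the pathway counts were 2 and 1 (median log2 fold change -0.03, against -0.009 over all genes tested, of which 1.71% were called), with Fyb 0.35, Cbl 0.34 and Tyrobp -0.28. Here 28 of all genes were higher and 205 lower. Fcrla, an Fc receptor-like gene, was also called for the cytokine difference in Treg against Tconv uptake but is listed at 0 in all 4 IFN-γ Treg-phagocytic libraries, so no fold is given.

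**Figure D4:**
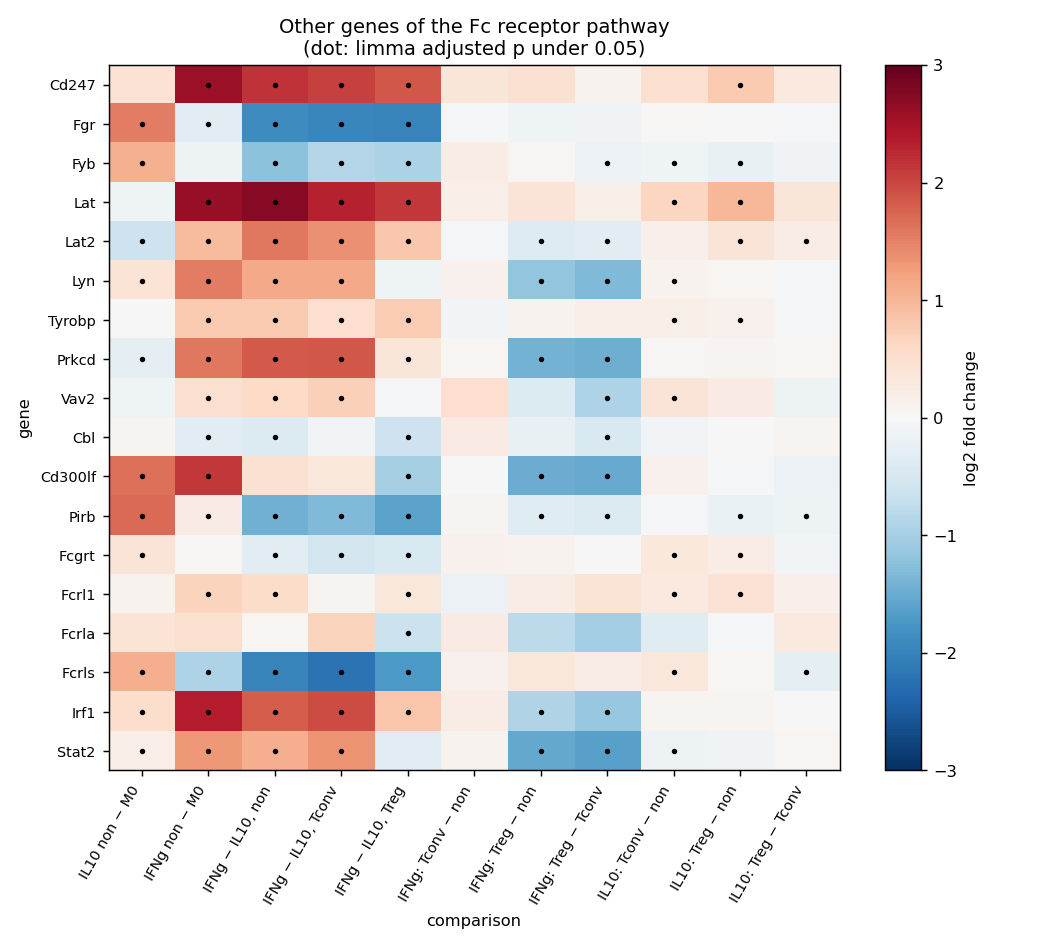
Log2 fold change (colour, from -3 to 3) of 18 other Fc receptor pathway genes named by the rule (y axis) in the 11 pairwise comparisons (x axis); a dot marks a limma adjusted p under 0.05. Lyn, Prkcd, Stat2, Irf1 and Cd300lf are lower after Treg uptake under IFN-γ, with Lyn at -1.33 against Tconv uptake, and Lat and Cd247 are higher under IFN-γ in all 3 uptake classes.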

How the data were processed

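The deposited values are TPM per Ensembl gene ID with 2 decimals, per the file headers. The submitters' processing notes name STAR, RSEM and mm10, without versions or roles, and the annotation and strand setting are not given in the sources used here. Per the labels' protocols the libraries were poly(A)-selected and strand-specific (NEBNext Ultra II Directional). All 28 libraries were used, and 0 of 378 pairs were identical.

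The 13631 genes that reached 1 TPM in 4 or more libraries were tested with limma 3.58.1 (R 4.3.3; lmFit, eBayes with trend) on log2(TPM / scaling factor + 1), with only the groups compared in each fit. Libraries were scaled by a trimmed mean of their log2 ratios without weights, after trimming 30% of ratios and 5% of levels. P-values were adjusted by Benjamini-Hochberg over all genes in each of 14 comparisons (11 of pairs of groups, 3 differences of differences), with calls at an adjusted p under 0.05. The fit was also run on simulated data with planted changes of 1 on the log2 scale. These were larger than any member change with uptake, so that run does not speak to changes of their size.

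Ratios of receptors were taken from the deposited TPM and tested by two-sided exact permutation, adjusted over 11 comparisons for the sum and over 33 for single receptors. Python 3.11.15 was used for these. The text names all 5 members, at most 4 called pathway genes with the largest absolute change per comparison, and the 3 genes most correlated with each member among those of at least 5 TPM on average. A pathway gene that the rule names is not reported here. Members, lists and tests were chosen with earlier results of these data known.

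Relative depth was read from genes with 1 transcript of 500 to 2000 nt, where TPM times length (less 220 nt) falls on whole multiples of 1 read: 87.6% to 91.7% of low values lay within 0.15 reads of a whole number. Alternatives were no scaling and median-of-ratios scaling, pseudocounts of 0.1 and 5, no filter and a filter of 5 TPM, 1 model of all libraries with and without variance weights, a size limit of 1 on the log2 scale, replicate blocks, the dye as covariate and each library left out.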

Additional observations from a re-analysis of the deposited data

Results flagged for a closer look

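Groups of 4 libraries were checked for a library far from the other 3, over the 5 members and the activating to inhibitory ratio in 7 groups (42 sets), of which chance alone would flag about 1 in 20. In 3 sets a library stood apart. Fcgr1 in IL-10 non-phagocytic library 2 was 196.95 TPM, above the other 3 at 189 to 189.9 TPM. Fcgr4 in IL-10 non-phagocytic library 4 was 157.79 TPM, below the other 3 at 168.3 to 170.3 TPM. The activating to inhibitory ratio in IL-10 Tconv-phagocytic library BV421-2 was 2.00, below the others at 2.14 to 2.17.

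Of the differences between IFN-γ and IL-10 in the change with uptake, 4 passed the test of the difference itself (limma, adjusted over 13631 genes). Fcgr2b differed by -0.20 for Treg against Tconv uptake (adjusted p = 0.0294) and by -0.26 for Treg uptake against none (adjusted p = 0.00379). Fcgr4 differed by -0.32 for Treg uptake against none (adjusted p = 0.0498). Fcer1g differed by -0.27 for Tconv uptake against none (adjusted p = 0.0233). Of 24 alternatives that set no limit on size, these calls were kept in 17, 24, 6 and 16, in the order given.

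The activating to inhibitory ratio moved in opposite directions with Treg uptake against none: by 0.19 on the log2 scale under IFN-γ and by -0.075 under IL-10, with all 4 Treg-phagocytic libraries on one side of all 4 non-phagocytic ones in each case. The difference between these 2 changes was not tested.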

How the results depend on the processing

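Of 1395 recomputed member fold changes, 1266 kept their direction and side of the threshold, 95 lost a call, 13 gained one and 21 changed sign, each of the last without a call in the fit reported. Of the members, the number called that also changed by 1 or more on the log2 scale was 2 for each comparison of IFN-γ with IL-10 and for IL-10 against M0, and 0 for all others. At the adjusted p alone, the number of members called in 1 model of all 28 libraries was 2 for IFN-γ Treg against Tconv, 2 for IFN-γ Treg against none, 1 for IL-10 Treg against Tconv, 1 for IL-10 Treg against none, 1 for IL-10 Tconv against none and 2 for the cytokine difference in Treg against Tconv. Without scaling the number called was 2 for IFN-γ Treg against none, 4 for IL-10 Treg against none, 1 for IL-10 Tconv against none, 1 for the cytokine difference in Treg against none and 0 for the cytokine difference in Tconv against none. A filter of 5 TPM gave 2 for IFN-γ Treg against none, variance weights 2 for IFN-γ Treg against none, 3 for IL-10 Tconv against none, 1 for the cytokine difference in Treg against none and 0 for the cytokine difference in Tconv against none, and no filter 1 for IL-10 Treg against none, 4 for IFN-γ against M0, 1 for the cytokine difference in Treg against none and 0 for the cytokine difference in Tconv against none. Median-of-ratios scaling and pseudocounts of 0.1 and 5 each gave 1 for the cytokine difference in Treg against none. Leaving out 1 library gave 1 to 2 for IL-10 Treg against Tconv, 1 to 3 for IL-10 Treg against none, 4 to 5 for IFN-γ against M0, 0 to 2 for the cytokine difference in Treg against Tconv, 1 to 3 for the cytokine difference in Treg against none and 0 to 2 for the cytokine difference in Tconv against none. The causes were not tested.

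Library numbers did not pair the samples: correlations of deviations between same-numbered libraries ran from -0.07 to 0.09, and at most 3 of 4 correlated best with their own number. With a replicate block by number the members called were 0 for IFN-γ Treg against none, 0 for IL-10 Treg against Tconv, 1 for IL-10 Treg against none and 1 for IL-10 Tconv against none, and by title 0 for IL-10 Treg against Tconv, with other counts as reported.

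The activating to inhibitory ratio is the same under any scaling. With 1 activating receptor the log2 differences, in the order IFN-γ Treg against Tconv and none, IL-10 Treg and Tconv against none, IFN-γ against IL-10 without uptake, after Treg and after Tconv uptake, IFN-γ against M0 and IL-10 against M0, were 0.37, 0.15, -0.18, -0.15, -0.44, -0.11, -0.52, -0.95 and -0.51 for Fcgr1, 0.41, 0.27, -0.072, -0.080, 0.21, 0.56, 0.16, -0.88 and -1.10 for Fcgr3 and 0.18, -0.043, 0.022, 0.013, 0.82, 0.75, 0.58, 0.077 and -0.74 for Fcgr4, none of them called after adjustment over 33 tests. IL-10 Treg against Tconv uptake, which was not called, was -0.032 with Fcgr1 alone, -0.023 by medians and -0.025 to 0.015 without 1 library.

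Fold changes that changed sign were Fcgr1 in IFN-γ Treg against Tconv (-0.061 without scaling, -0.077 to 0.089 without 1 library), Fcgr3 in IFN-γ Treg against Tconv (-0.026 without scaling), Fcgr3 in IFN-γ Treg against none (0.027 with median-of-ratios scaling, -0.053 to 0.015 without 1 library), Fcer1g in IFN-γ Treg against none (-0.028 to 0.039 without 1 library), Fcer1g in IL-10 Treg against Tconv (-0.031 to 0.0069 without 1 library), Fcgr4 in IL-10 Treg against none (-0.045 to 0.00064 without 1 library), Fcgr1 in IL-10 Tconv against none (-0.063 to 0.0053 without 1 library), Fcgr3 in IL-10 Tconv against none (-0.041 without scaling), Fcgr4 in the cytokine difference in Treg against Tconv (0.023 with median-of-ratios scaling, -0.080 to 0.050 without 1 library), Fcgr1 in the cytokine difference in Treg against none (-0.072 to 0.15 without 1 library), Fcgr1 in the cytokine difference in Tconv against none (0.00040 without scaling), Fcgr2b in the cytokine difference in Tconv against none (0.071 without scaling) and Fcgr3 in the cytokine difference in Tconv against none (0.015 without scaling). Depth limits the IFN-γ libraries most, and no read counts were used in the tests.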
